A study of Mus musculus with 6 samples.

Results

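Chromatin accessibility was examined around 7 genes of the RUNX and core-binding factor family, Runx1, Runx2, Runx3, Runx1t1, Cbfb, Cbfa2t3 and Cbfa2t2, in mouse acute myeloid leukaemia cells. The members were all ATAC-seq peaks whose nearest annotated transcription start site (TSS) belonged to 1 of these genes and lay within 100000 bp. This rule used position and gene name, and no measured value. It took 478 of the 175929 peaks of the table, of which 255 were assigned to Runx1, 88 to Cbfa2t3, 74 to Runx3, 27 to Runx2, 15 to Cbfb, 10 to Runx1t1 and 9 to Cbfa2t2. A further 14 peaks of Runx1 and 16 of Runx2 lay beyond the limit and were left out.

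In ATAC-seq a transposase cuts open DNA and adds sequencing adapters, so that the number of sequenced ends (tags) over a peak measures how accessible it is. The leukaemia was made by transducing fetal liver cells of Usp18+/f UBCER-Cre mice with a retrovirus that carried GFP and AE9a, a truncated AML1/ETO fusion, and by transplanting them. In this line a tamoxifen-activated Cre is present in all tissues, and every cell of both groups carried AE9a and the Cre. Recipients that had become ill received oil, which left the cells Usp18+/f (replicates 1, 2 and 4), or tamoxifen, which gave Usp18+/D cells in which 1 allele of Usp18 is deleted (replicates 1, 3 and 4). GFP+ Lin- c-Kit+ splenocytes were sorted 3 days after the first injection. Tamoxifen was given to 1 group alone, so the drug and the loss of the allele cannot be told apart here. The labels do not say whether each library came from its own mouse. The study's methods describe cells sorted from separate mice in one place and, in another, fewer biological replicates than there are libraries. Hence n and SD are over libraries, and p-values measure only the spread between these, which may in part be technical.

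The RUNX proteins are transcription factors that bind DNA through a Runt domain and gain affinity for it by pairing with the non-DNA-binding subunit encoded by Cbfb. Runx1 is needed for blood stem cells and for megakaryocytes and lymphocytes, Runx2 directs bone formation, and Runx3 acts in T cells, natural killer cells and neurons. Each of the 3 Runx genes is read from a distal promoter (P1) and a proximal promoter (P2). Runx1t1 (ETO), Cbfa2t2 (MTGR1) and Cbfa2t3 (MTG16) encode a second family, co-repressors that do not bind DNA in a sequence-specific way themselves. AML1/ETO joins the Runt domain of RUNX1 to most of RUNX1T1, so the transgene in these cells holds coding sequence of both.

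Sequences of 6 peaks on which the results turn are given (mm10 genome, plus strand), because they hold or lack motifs of the RUNX proteins and of factors that often bind beside them. Capitals mark matches, on either strand, to the RUNX motif TGTGGT, the motif AGATAA of the GATA factors, the AP-1 motif TGANTCA or the ETS motif AGGAAG, none of which overlapped each other here. The Runx3 P1 peak spans chr4:135120337-135120537, the Runx1 upstream peak chr16:92871680-92871907 and the Runx1 intron peak chr16:92653996-92654225. The Runx1 peak labelled lower, which was lower by the test after tamoxifen, spans chr16:92761588-92761796. The shown Runx1t1 peaks span chr4:13785777-13786014 and chr4:13805786-13806041, both in the first intron of the transcript that begins at the last annotated start.
Runx3 P1: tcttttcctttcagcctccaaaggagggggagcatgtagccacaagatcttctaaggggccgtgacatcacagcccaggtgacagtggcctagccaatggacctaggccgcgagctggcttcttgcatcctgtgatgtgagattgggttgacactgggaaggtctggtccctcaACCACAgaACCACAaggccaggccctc
Runx1 upstream: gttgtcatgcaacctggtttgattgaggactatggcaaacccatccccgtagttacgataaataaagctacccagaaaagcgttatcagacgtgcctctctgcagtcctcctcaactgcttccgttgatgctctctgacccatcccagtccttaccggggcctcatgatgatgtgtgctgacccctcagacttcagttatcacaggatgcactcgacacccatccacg
Runx1 intron: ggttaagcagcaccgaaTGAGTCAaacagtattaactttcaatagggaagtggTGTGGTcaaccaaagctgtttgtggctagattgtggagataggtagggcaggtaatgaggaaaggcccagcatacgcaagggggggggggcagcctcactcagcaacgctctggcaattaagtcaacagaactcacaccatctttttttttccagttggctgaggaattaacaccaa
Runx1 lower: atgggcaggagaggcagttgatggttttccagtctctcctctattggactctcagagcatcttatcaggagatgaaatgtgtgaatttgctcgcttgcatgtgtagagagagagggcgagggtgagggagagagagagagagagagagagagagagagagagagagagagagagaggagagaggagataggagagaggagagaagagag
Runx1t1 first intron, start side: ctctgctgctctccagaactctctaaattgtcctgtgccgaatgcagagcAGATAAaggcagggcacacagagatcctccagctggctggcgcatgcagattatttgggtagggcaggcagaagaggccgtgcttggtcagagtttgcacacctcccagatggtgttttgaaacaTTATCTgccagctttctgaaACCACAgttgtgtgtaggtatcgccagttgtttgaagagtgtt
Runx1t1 first intron, further in: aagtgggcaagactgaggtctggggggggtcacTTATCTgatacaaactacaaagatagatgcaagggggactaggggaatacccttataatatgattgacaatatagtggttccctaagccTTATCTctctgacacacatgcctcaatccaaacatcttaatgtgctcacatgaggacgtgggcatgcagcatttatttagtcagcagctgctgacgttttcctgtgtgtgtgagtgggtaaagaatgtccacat
The Runx3 P1 peak holds 2 RUNX matches at bases 175 to 180 and 183 to 188, each inside the 7-letter form TGTGGTT on the other strand. The Runx1 upstream peak holds none of the 4 motifs as spelled above, and other spellings of the GATA, ETS and AP-1 motifs were not searched. The Runx1 peak labelled lower is in large part a run of alternating g and a, with 44.5% of its bases marked as repeat in the reference.

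Of the 478 peaks, 10 differed between tamoxifen and oil at an adjusted p under 0.05 (DESeq2, Benjamini-Hochberg over all peaks), 9 of them higher after tamoxifen and 1 lower. That is 2.09% of the members, against 1.39% of all peaks tested (1.22% higher and 0.167% lower). Only 2 peaks, both of Runx1t1, also exceeded a 2-fold change, or 0.418% of the members against 0.654% of all peaks. At an unadjusted p under 0.05, 48 peaks were higher (10.0% of the members, against 6.18% of all peaks) and 9 were lower (1.88% against 2.84%). The 3 tamoxifen values all lay above the 3 oil values at 91 peaks (19.0%, against 11.9% of all peaks) and all below at 33 (6.90%, against 10.0%). The median log2 fold change of the members was 0.10, and that of all peaks was -0.0013. All 10 peaks were in the peak list of each group, so none entered the table through 1 group alone, and none overlapped an annotated exon.

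**Figure D1:**
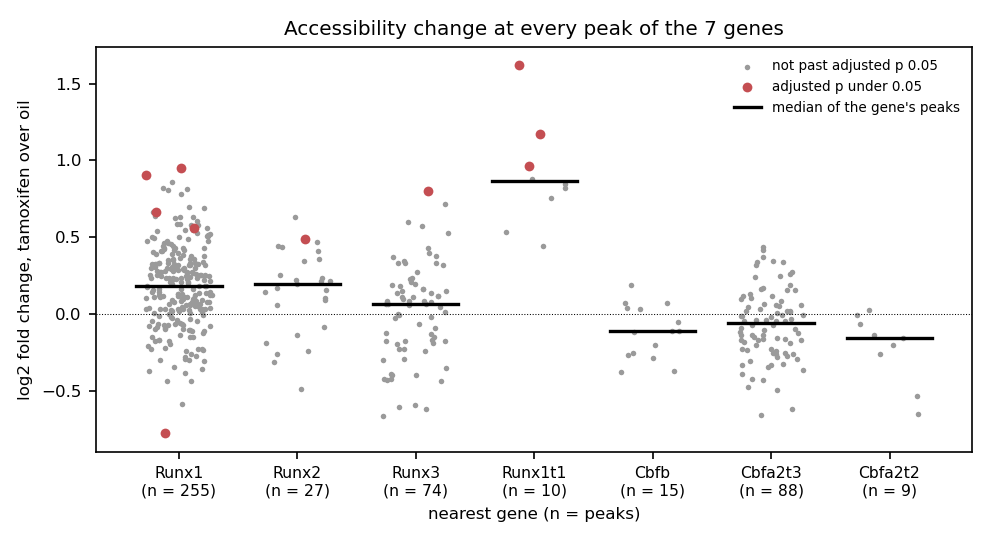
Each point is 1 of the 478 peaks, placed by its nearest gene, with the log2 fold change of tamoxifen over oil on the y axis. Red points passed an adjusted p of 0.05 and black lines are the medians, which run from -0.15 at Cbfa2t2 to 0.86 at Runx1t1.

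The genes differed in their values. Median log2 fold changes were 0.86 at Runx1t1, 0.19 at Runx2, 0.19 at Runx1 and 0.06 at Runx3, and -0.06 at Cbfa2t3, -0.11 at Cbfb and -0.15 at Cbfa2t2. The fold change was above 0 at 10 of 10 Runx1t1 peaks, 197 of 255 Runx1 peaks and 20 of 27 Runx2 peaks. It was so at 33 of 88 Cbfa2t3 peaks, 5 of 15 Cbfb peaks and 1 of 9 Cbfa2t2 peaks, and at 87506 of all 175929 peaks. Of the 10 Runx1t1 peaks, 5 were in the tamoxifen peak list alone, so a higher value there was favoured by how they entered. The passing peaks were 5 of Runx1 (1.96% of its peaks), 3 of Runx1t1 (30%), 1 of Runx2 (3.70%) and 1 of Runx3 (1.35%), against 1.39% of all peaks. Leaving out 1 library moved 4 of these medians by over 1.5 times. That of Runx3 was 0.04 without oil replicate 1 and 0.01 without tamoxifen replicate 4, and that of Cbfb -0.17 without oil replicate 1 and -0.08 without tamoxifen replicate 3. That of Cbfa2t3 was -0.10 without any 1 of oil replicate 1 and tamoxifen replicates 3 and 4, and that of Cbfa2t2 was -0.24 without tamoxifen replicate 4. Differences between the genes' medians were not tested, since peaks of a gene are not replicates.

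The tags of all peaks of a gene, divided by the DESeq2 size factor of the library (normalised tags) and summed, gave 1 value per gene and library. For Runx1t1 these sums were 368, 279.9 and 316 after oil and 715, 614 and 535 after tamoxifen, a mean 93.3% higher. They include 5 peaks that entered the table through the tamoxifen peak list alone. For Runx1 they were 20888, 20582 and 21568 after oil and 24073, 24490 and 22079 after tamoxifen, a mean 12.1% higher. Runx2 gave 2698, 2598 and 2696 against 2922, 2983 and 2867, a mean 9.76% higher. In each of these the lowest tamoxifen library lay above the highest oil library, and the tamoxifen library nearest to oil was replicate 4. Runx3 was also separated, from 4796 to 5038 after oil and from 5088 to 5203 after tamoxifen, with replicate 4 at 5088 and replicate 1 at 5091. Cbfa2t2 lay lower, at 1228 to 1289.5 after oil and 1155 to 1200.2 after tamoxifen. Cbfb (2109 to 2148 against 2137 to 2160.4) and Cbfa2t3 (8504 to 8612 against 7854 to 8555) overlapped between the groups. No test was run on these sums, and the share of all genes whose sums separated in this way is not given here. At single peaks, 11.9% of all peaks were higher without overlap of the groups and 10.0% were lower.

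**Figure D2:**
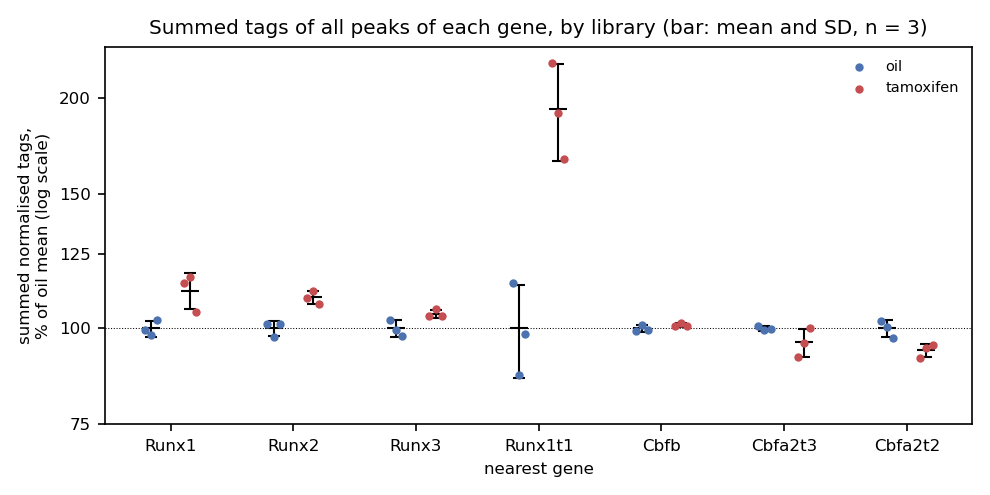
Points are the summed normalised tags of each gene in each library, as a percentage of that gene's oil mean on a log axis, and bars are the mean and SD of 3 libraries. The 3 Runx1t1 tamoxifen points lie far above 100, those of Runx1, Runx2 and Runx3 slightly above, and those of Cbfa2t2 below.

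Runx1t1, the gene that supplies the ETO portion of the fusion, had the largest median of the 7 genes. Its peak with the lowest p, 21131 bp inside the last start and shown above with 2 GATA matches, held 37.0, 33.2 and 24.6 normalised tags after oil and 96.2, 118 and 78.2 after tamoxifen. Every tamoxifen library was thus above every oil library, and the log2 fold change was 1.62 ± 0.27 (SE; adjusted p = 1.35e-06, DESeq2, n = 3 per group). The peak at +43727 bp held 56.3, 45.8 and 53.3 tags after oil and 144, 132 and 75.4 after tamoxifen, with replicate 4 well under the other tamoxifen libraries (log2 fold change 1.17 ± 0.25, adjusted p = 0.000829). The peak at +1113 bp, whose sequence has 1 RUNX and 2 GATA matches, held 56.3, 47.3 and 49.3 tags after oil and 116, 98.0 and 81.9 after tamoxifen (0.96 ± 0.23, adjusted p = 0.00598). The first kept its call whichever library was left out. That at +43727 bp lost it without tamoxifen replicate 1 or 3, with an adjusted p of up to 0.0822, and that at +1113 bp lost it without oil replicate 2 or 4 or tamoxifen replicate 1 or 3, with one of up to 0.193. These 3 peaks lie in the body of the gene, between the last start and the gene end.

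The 5 peaks at the annotated Runx1t1 starts did not pass. The peak nearest a TSS, at the first start, held 31.4, 25.8 and 15.2 tags after oil and 64.3, 33.4 and 40.0 after tamoxifen, which did not overlap (log2 fold change 0.96 ± 0.36, adjusted p = 0.232). At the second start the peak in both groups' lists had a log2 fold change of 0.75 (adjusted p = 0.0701). Of the 10 Runx1t1 peaks, 5 were in the tamoxifen list alone and 0 in the oil list alone, and those 5 entered the table through the tamoxifen group. The other 5, called in both groups, had a median log2 fold change of 0.96. Since reads of the AE9a transgene could align to exons, the 4 Runx1t1 peaks that overlap an exon were also set aside, and the median of the remaining 6 was 0.92. In bulk samples a larger share of cells with an open site and more opening per cell cannot be told apart.

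**Figure D3:**
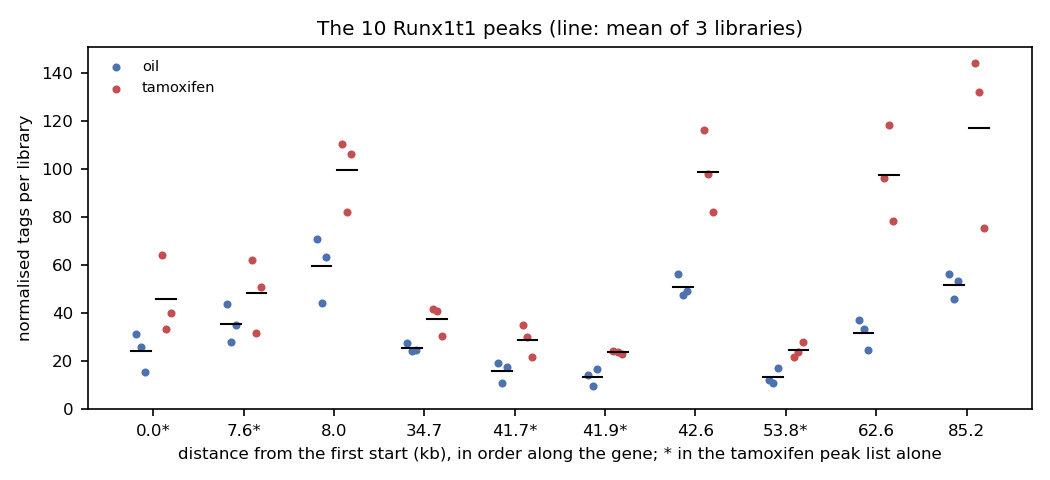
The 10 Runx1t1 peaks are placed in order along the gene, with the normalised tags of each library on the y axis and a line at each group's mean. An asterisk marks the 5 peaks in the tamoxifen peak list alone. Tamoxifen means are above oil means at all 10, and the 3 peaks that passed lie from +1113 to +43727 bp of the last start, at the right of the plot.

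Runx1 had more peaks within 100000 bp than any other of the 19781 genes in the table. Neither of its promoters passed. The P1 peak held 369, 357 and 336 normalised tags after oil and 389.5, 385 and 351 after tamoxifen (log2 fold change 0.09 ± 0.11, adjusted p = 0.942), and the P2 peak 766, 721 and 663 after oil and 728, 758 and 693 after tamoxifen (0.02 ± 0.09, adjusted p = 0.993). The groups overlapped at both. The peak nearest to the known intronic blood enhancer, 24377 bp downstream of P1, held 448, 388 and 390.2 tags after oil and 412, 461 and 419 after tamoxifen (0.08 ± 0.11, adjusted p = 0.954). The highest distal peak, at -18423 bp from P2, held 771, 658 and 669 tags after oil and 574, 557 and 729 after tamoxifen (-0.17 ± 0.11, adjusted p = 0.721), but without tamoxifen replicate 4 it was lower by the test (-0.30, adjusted p = 0.0473).

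The Runx1 peaks divided by position. From P2 to the gene end, a stretch of 95.9 kb, 140 of 148 peaks away from a start had a fold change above 0 and the median log2 fold change was 0.30. Between P1 and P2, a stretch of 128.7 kb, 35 of 81 peaks did, and the median was -0.04. In the first stretch 25 peaks were higher and 0 lower at an unadjusted p under 0.05, against 2 and 2 between the promoters. These are 16.9% and 0% of the stretch past P2 and 2.47% and 2.47% of that between the promoters, where all peaks had 6.18% and 2.84%. Past P2 51 peaks were higher without overlap of the groups and 0 lower (34.5% and 0%), against 4 and 11 between the promoters (4.94% and 13.6%) and 11.9% and 10.0% of all peaks. Peaks were also denser downstream of P2, at 1.55 per kb against 0.652 per kb.

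The medians changed near P2 itself. In steps of 25 kb, the median log2 fold change was 0.11 from -50 to -25 kb and -0.11 from -25 kb to P2, then 0.20 in the first step past P2, 0.36 in the next, 0.32 in the third and 0.30 in the fourth. In those 4 steps the fold change was above 0 at 36 of 39, 38 of 40, 37 of 39 and 37 of 38 peaks. The 7 peaks beyond the gene end had a median of 0.32, and the 14 upstream of P1 one of 0.19. The neighbours on either side had medians of 0.05 over 35 Clic6 peaks past the gene end and -0.02 over 39 peaks of 1810053B23Rik upstream. This split by promoter was chosen after the values were seen and carries no test.

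**Figure D4:**
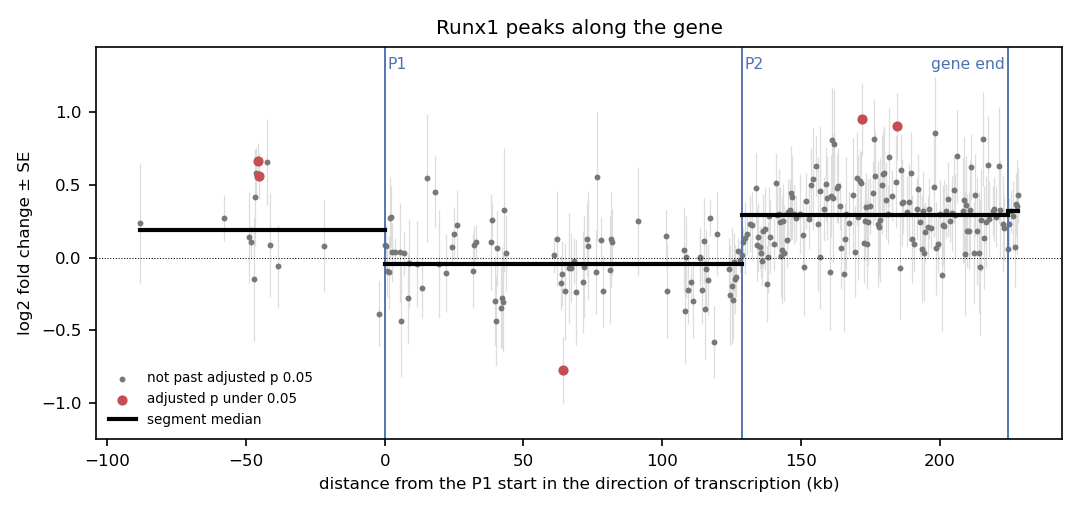
Each point is a Runx1 peak with its log2 fold change and SE, placed by its distance from the P1 start in the direction of transcription. Black lines are segment medians, -0.04 between P1 and P2 and 0.30 from P2 to the gene end, and red points passed an adjusted p of 0.05.

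Per library, the summed tags of the 148 peaks from P2 to the gene end were 8445, 8694 and 9387 after oil and 11449, 11480 and 9635 after tamoxifen. The groups did not overlap, but tamoxifen replicate 4 lay close to oil replicate 4. The 81 peaks between the promoters gave 8091, 7742 and 7944 after oil and 7698, 7994 and 7970.1 after tamoxifen, which overlapped. As the median log2 ratio to the oil mean, the downstream stretch stood at -0.06, -0.03 and 0.08 in the oil libraries and at 0.38, 0.40 and 0.12 in tamoxifen replicates 1, 3 and 4. Without tamoxifen replicate 4 its median log2 fold change was 0.35, and over all settings tried it stayed between 0.22 and 0.35. Its median was above that of all peaks at each tag level, at 0.28 for 67 peaks under 50 tags, 0.32 for 55 peaks from 50 to 100 tags and 0.26 for 26 peaks above, where all peaks of the table had medians of -0.02, 0.01 and 0.00. The 96 peaks called in both groups gave a median of 0.29, beside 31 called after tamoxifen alone and 21 after oil alone. Without the 15 Runx1 peaks that overlap an exon, the median of the whole gene was 0.19.

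Of the single Runx1 peaks 5 passed. The most significant lies at -45719 bp from P1, outside any gene, and held 251, 235 and 242 normalised tags after oil and 403, 430.1 and 323 after tamoxifen, with no overlap (log2 fold change 0.66 ± 0.13, adjusted p = 9.50e-05). A peak beside it, at -45331 bp, held 123, 134 and 124 tags after oil and 172, 197 and 194 after tamoxifen (0.56 ± 0.16, adjusted p = 0.0310). Thus 2 adjacent sites, chr16:92871269-92871542 and chr16:92871680-92871907, were both higher in every tamoxifen library. Downstream of P2, the intron peak at +43219 bp, which has a RUNX and an AP-1 match, held 46.9, 35.6 and 45.2 tags after oil and 79.7, 94.7 and 70.8 after tamoxifen (0.95 ± 0.25, adjusted p = 0.0183). The intron peak at +55992 bp, with a RUNX and a GATA match, held 51.3, 47.8 and 65.9 tags after oil and 106, 121 and 83.8 after tamoxifen (0.90 ± 0.23, adjusted p = 0.0127). The only peak of the 7 genes that passed as lower in the main fit is the g and a repeat between P1 and P2. It held 97.6, 102 and 103 tags after oil and 51.2, 49.0 and 74.5 after tamoxifen (-0.78 ± 0.23, adjusted p = 0.0455). Of the 5, the peak at -45719 bp kept its call whichever library was left out, at an adjusted p of up to 0.0177. The peak at -45331 bp lost it without any 1 of the 6 libraries (0.0528 to 0.352). The peak at +55992 bp kept it without oil replicate 4 or tamoxifen replicate 4 alone, and those at +43219 bp and -64363 bp kept it without tamoxifen replicate 4 alone, with adjusted p-values otherwise of up to 0.352, 0.415 and 0.518.

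Runx3 changed at P1 alone among its peaks in the main fit, although a difference between P1 and P2 was not tested. With edgeR 2 Runx3 peaks passed, where 2.92% of all peaks did. Without tamoxifen replicate 4, 2 passed as higher and 1 as lower, where 3.71% of all peaks passed. The P1 peak, centred 208 bp before the start and shown above with its pair of RUNX matches, held 213, 198 and 199.8 normalised tags after oil and 376, 398 and 291 after tamoxifen. Each tamoxifen library exceeded each oil library, and the log2 fold change was 0.80 ± 0.14 (adjusted p = 3.41e-06). The P2 peak held 139.5, 136 and 136 tags after oil and 134, 166 and 142 after tamoxifen (0.10 ± 0.16, adjusted p = 0.967), with overlap. The highest distal peak, just inside P2, held 324, 342 and 295 tags after oil and 378, 369.9 and 308 after tamoxifen (0.14 ± 0.12, adjusted p = 0.870). Over all 74 Runx3 peaks, the groups did not overlap at 9 that were higher and at 9 that were lower (each 12.2%), which is near the shares of all peaks (11.9% and 10.0%).

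At Runx2 the 1 peak that passed in the main fit lay within the gene. The intron peak at +81483 bp held 214, 170.2 and 198 normalised tags after oil and 263, 299.7 and 255 after tamoxifen (log2 fold change 0.49 ± 0.14, adjusted p = 0.0341). All tamoxifen values were above the oil values, but the call held without tamoxifen replicate 4 and was lost when any other library was left out (adjusted p of up to 0.522) and when distal peaks were fitted apart (0.131). It contains 1 AP-1 match and a pair of ETS matches that point in opposite directions. Both peaks at P2 had fold changes in the same direction without passing, at 0.22 ± 0.13 (adjusted p = 0.693) and 0.26 ± 0.13 (adjusted p = 0.568). The first held 223, 233 and 239 tags after oil and 275, 297 and 237 after tamoxifen, so the groups overlapped. No Runx2 peak among the members lay within 500 bp of the P1 start, the promoter best known from bone. The highest distal peak, at +96800 bp, held 448, 449 and 426 tags after oil and 403, 321 and 437 after tamoxifen (-0.19 ± 0.12, adjusted p = 0.713).

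**Figure D5:**
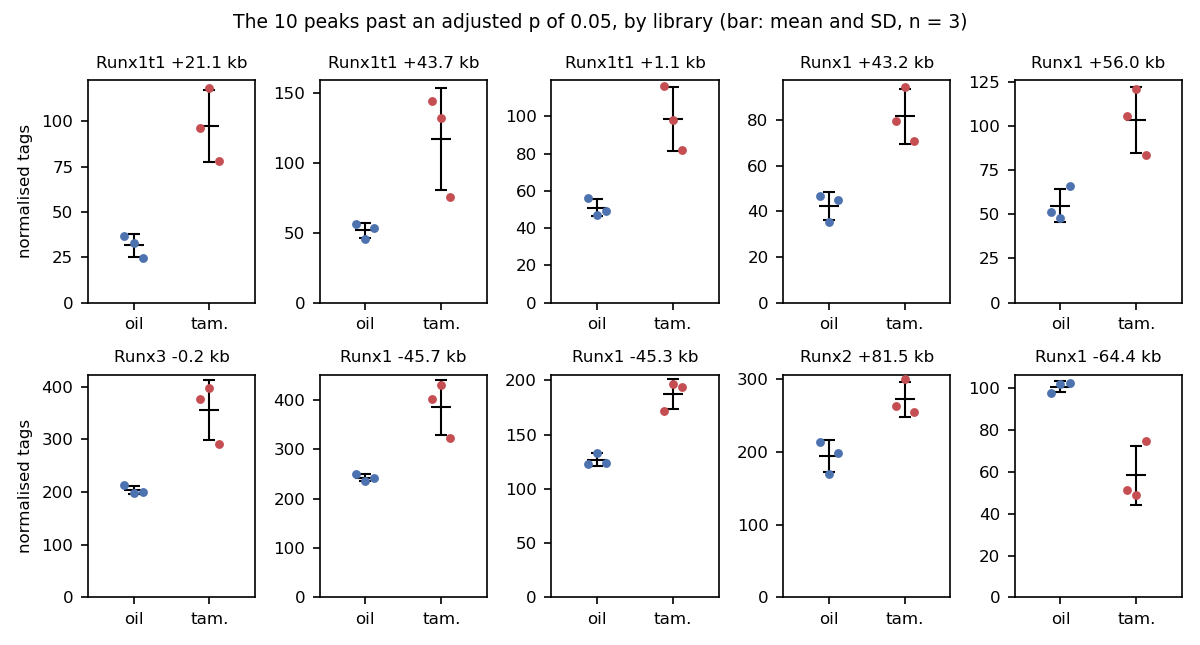
Each panel is 1 of the 10 peaks that passed, named by gene and distance to the nearest start, with normalised tags of the 3 oil and 3 tamoxifen libraries and bars for the mean and SD. The groups do not overlap in any panel, and the last Runx1 panel, the peak at -64363 bp, is the only 1 that is lower after tamoxifen.

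None of the peaks near the partner subunit Cbfb passed (0 of 15), nor did any at an unadjusted p under 0.05. Its promoter peak held 787, 749 and 710.5 normalised tags after oil and 797, 821 and 745 after tamoxifen (log2 fold change 0.07 ± 0.08, adjusted p = 0.927). The lowest p was at -12922 bp, with 154, 125.3 and 135 tags after oil and 89.4, 97.5 and 132 after tamoxifen (-0.37 ± 0.19, adjusted p = 0.568). The highest distal peak, at -12374 bp, held 162, 176 and 189.9 tags after oil and 206, 207 and 189 after tamoxifen (0.19 ± 0.14, adjusted p = 0.826). These neighbouring sites had fold changes of opposite sign, neither past the test.

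The co-repressor genes Cbfa2t3 and Cbfa2t2 also had no passing peak (0 of 88 and 0 of 9). At an unadjusted p under 0.05, Cbfa2t3 had 1 peak higher and 5 lower (1.14% and 5.68%), and Cbfa2t2 had 0 higher and 1 lower (0% and 11.1%). Of all peaks 6.18% were higher and 2.84% lower. The promoter peaks overlapped between the groups, with 225.0, 217 and 246 normalised tags after oil and 205, 254.6 and 252 after tamoxifen at Cbfa2t3 (log2 fold change 0.04 ± 0.14, adjusted p = 0.989), and 818, 790.3 and 733 against 789, 847 and 744 at Cbfa2t2 (0.02 ± 0.08, adjusted p = 0.992). The Cbfa2t2 intron peak at +27518 bp held 195, 188 and 189 tags after oil and 105, 104 and 184 after tamoxifen (-0.53 ± 0.19, adjusted p = 0.189). Its replicate 4 value was at the oil level while the other tamoxifen libraries were far below, and without that library the peak passed (-0.86, adjusted p = 0.000155).

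By position, the median log2 fold change of Cbfa2t3 peaks was 0.011 at its starts, 0.008 upstream and -0.047 from the last start to the gene end. It was lowest, at -0.31, for the 18 peaks between the first and last start. This split, like that of Runx1, was not planned and carries no test. At an unadjusted p under 0.05, 3 of the 18 were lower (16.7%) and 0 higher, against 2.84% and 6.18% of all peaks. Their summed tags were 1677, 1742 and 1657 after oil and 1249, 1131 and 1658 after tamoxifen. Again replicates 1 and 3 were low and replicate 4 was not. The Cbfa2t3 peak with the smallest p, at -1632 bp, went the other way, with 212, 177 and 194 tags after oil and 285, 287 and 217 after tamoxifen (0.44 ± 0.14, adjusted p = 0.118), and it passed in edgeR (adjusted p = 0.0398) and without tamoxifen replicate 4 (0.00507). The highest distal peak, at -20729 bp, overlapped between the groups at 507, 466 and 426 tags against 466, 512.5 and 443 (0.02 ± 0.10, adjusted p = 0.994).

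Tamoxifen replicate 4 thus weighed on several of these counts. Without it 24 peaks of the 7 genes passed (5.02%), but so did 3.71% of all peaks. Of the 24, 15 were higher (3.14%, against 2.29% of all peaks) and 9 lower (1.88%, against 1.43%), the lower ones being 5 of Cbfa2t3, 2 of Runx1, 1 of Runx3 and 1 of Cbfa2t2. When any other library was dropped, all passing peaks were higher. They numbered 5, 4 and 5 with oil replicates 1, 2 and 4 dropped in turn, and 3 with either tamoxifen replicate 1 or 3 dropped, or 0.628% to 1.05% of the members, where 0.358% to 0.613% of all peaks passed. In each of the 6 fits 3 peaks passed, the Runx3 P1 peak (log2 fold change 0.72 to 0.93), the Runx1t1 peak at +21131 bp (1.46 to 1.76) and the Runx1 peak at -45719 bp (0.58 to 0.78). The other 7 lost the call in 2 to 6 of them, and the Runx1 peak at -45331 bp lost it in all 6. With edgeR 17 peaks passed (3.56%, against 2.92% of all peaks), among them 9 of Runx1 and 4 of Runx1t1.

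The peaks of the 7 genes were compared with all peaks for what their sequence holds, as a description. A RUNX match was in 29.7% of them (95% exact binomial interval 25.6 to 34.0) and in 24.2% of all peaks, but the 7-letter form TGTGGTT was in 9.21% and 9.03%. The difference for the shorter form also narrowed when only the central 200 bp of each peak were read (21.1% and 18.7%), and members were slightly wider, with a median of 275 bp against 250.0 bp. An ETS match was in 41.4% of members and 37.5% of all peaks, a GATA match in 19.0% and 19.1%, and an AP-1 match in 11.9% and 8.87%. In the central 200 bp the shares were nearly the same for ETS (29.9% and 29.9%) and AP-1 (6.69% and 6.61%). Members with a RUNX match had a median log2 fold change of 0.11 and those without of 0.09. With and without an AP-1 match the medians were 0.21 and 0.08, and over all peaks 0.022 and -0.0031. Of the 57 members with an AP-1 match 38 were Runx1 peaks, so the gene and the motif are mixed here. Among Runx1 peaks alone the medians were 0.27 and 0.16, and the difference was not tested.

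Genes that act with RUNX proteins were counted beside them. Near 26 cofactors and partners (among them Tcf3, Lmo2, Fli1, Ets1, Sin3a, Ep300 and Kmt2a), 5 of 515 peaks passed, all 5 higher (0.971%, below the 1.39% of all peaks), and the median log2 fold change was -0.04. Among them was a peak of Tle3, a Groucho co-repressor, at +54798 bp, which averaged 174 ± 12.8 (SD, n = 3) tags after oil and 282 ± 34.1 after tamoxifen (0.69 ± 0.14, adjusted p = 0.000283). Near 24 genes known as RUNX targets, 7 of 266 peaks passed, all higher (2.63%, against 1.39% of all peaks), with a median of 0.05. Of these, 6 were of Cdkn1a, the cell cycle inhibitor p21, such as the peak at +2801 bp with 75.9 ± 6.36 tags after oil and 152 ± 21.9 after tamoxifen (1.00 ± 0.19, adjusted p = 9.59e-05). The other was of Cebpe, a factor of granulocyte maturation, and no peak near Csf1r, Mpo, Spi1 or Cebpa passed.

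Over the 6 libraries, the 3 genes with at least 5 peaks whose summed tags followed those of Runx1 most closely, of 11419 genes compared, were Adm2, Gpr25 and Spns2, with Pearson coefficients of 0.998, 0.997 and 0.997 on the log2 scale. The coefficient was 0.94 for Runx2 (rank 407), 0.90 for Runx1t1 (rank 846), 0.71 for Runx3 and 0.54 for Cbfb. It was -0.83 for Cbfa2t3 and -0.89 for Cbfa2t2. Many other genes thus followed Runx1 more closely than its relatives did. The libraries fall into 2 groups, so these values are descriptions.

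Total tags ran from 57.4 to 74.7 M per library and the share in peaks from 28.2% to 30.5%. The peak at the start of Usp18, the targeted gene, held 415 to 458 tags after oil and 438 to 469 after tamoxifen (log2 fold change 0.03 ± 0.10, adjusted p = 0.988), and whether it lies in the deleted part is not given in the sources used here. The sorted cells had open chromatin at Kit (757 mean tags at its start after oil), Myb and Gata2, and at Cd34 the start rose from 94.6 ± 21.8 to 269.9 ± 60.5 tags (1.50 ± 0.19, adjusted p = 8.32e-12). Near the 7 blast markers summed tags were 12145 to 12753 after oil and 12468 to 13399 after tamoxifen. Of their 111 peaks 3 passed (2.70%, against 1.39% of all peaks), all near Cd34. Summed tags near 5 mast cell and basophil markers were 4123 to 4746 after oil and 4920 to 6730.2 after tamoxifen. Of their 64 peaks 5 passed (7.81%), all near Hdc. Hdc had 50 of these peaks and sums of 3056 to 3716 after oil and 3756 to 5647 after tamoxifen. Ms4a2 lay lower after tamoxifen, at 474 to 530 against 354 to 465. Near 7 T cell markers the sums were 1132 to 1286 and 1339 to 1487, and 1 of 24 peaks passed (4.17%), near Cd3d. That Cd3d peak held 213 to 231 tags after oil and 329 to 426 after tamoxifen. The sums of Lck overlapped (432 to 533 against 402 to 454), with a median log2 fold change of -0.19. Near 7 erythroid markers the sums were 6744 to 7031 and 6062 to 6407. There 2 of 60 peaks passed as higher and 3 as lower (8.33% together), against 1.22% and 0.167% of all peaks. The sums of 6 B cell markers (1513 to 1599.7 against 1528 to 1744) and 8 mature myeloid markers (4620 to 4823 against 4698 to 5059.5) overlapped with 0 peaks passing. Ms4a1 and Lyz2 had no peak. The mast cell and basophil, T cell and erythroid sums were thus separated by the same contrast as the RUNX genes, although not at every gene of each list. The blast, B cell and mature myeloid sums were not separated. The part of these cell types in the values above was not tested.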

How the data were processed

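ATAC-seq of 3 oil and 3 tamoxifen libraries was analysed. The authors mapped reads to mm10 with Bowtie2, called peaks with HOMER, merged the lists of both groups and counted tags per merged peak (versions not given in the sources used here). The deposited values are raw tags, an estimated count in steps of 0.5 with at most 3 tags per position, which caps very high peaks. Peaks were called on the libraries compared, so a peak open in 1 group alone enters. Tags were rounded to whole numbers and fitted over all 175929 peaks with DESeq2 1.42.0 (R 4.3.3; Wald test, Benjamini-Hochberg), with edgeR 4.0.16 (quasi-likelihood, robust) as an alternative. The study fitted peaks over 3000 bp from a TSS alone, and that separate fit is 1 of the alternatives. Median tags per peak ran from 45.0 to 57.0 per library, so counting error is sizeable at a typical peak. Scripts were tested on simulated data. Starts and ends of genes and all sequences are from the RefSeq annotation and genome of the same build, and peak starts may be off by 1 base. Motif shares cover 175738 peaks on assembled chromosomes, with intervals for counting error only.

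Named peaks followed a rule: the peak nearest a TSS of each gene, the highest distal peak and the smallest p of each gene with at least 5 peaks, all passing peaks, the Runx promoters and the Runx1 intronic enhancer. Peaks named beyond it (the other Runx1t1 start) were chosen after their values were seen. The members, lists and rule were chosen with earlier results of these data known. Alternatives varied the test, size factors, filters, distance limit, threshold, libraries and a replicate block. Single peaks of 1 gene on the partner list are not reported here.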

Additional observations from a re-analysis of the deposited data

How the results depend on the processing

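Size factors, filters and total mapped tags changed no call among the named peaks. With edgeR the count of passing peaks was 17 (16 higher), and 10 instead of 5 near the partners and 14 instead of 7 near the targets, where 2.92% of all peaks passed against 1.39%. Within 50000 bp there was no lower peak (0). Leaving out 1 library gave 3 to 24 passing peaks (3 to 15 higher, 0 to 9 lower), 1 to 6 also over 2-fold (1 to 5 higher, 0 to 1 lower), and a Runx3 median of 0.011 to 0.075. With distal and other peaks fitted separately the Runx1 peak at -45331 bp (0.54, adjusted p = 0.0849) and the Runx2 peak at +81483 bp (0.47, adjusted p = 0.131) no longer passed, and the Cbfa2t3 peak at -1632 bp did (0.45, adjusted p = 0.0370). Depth limits peaks of some 20 tags.

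The replicate numbers 1 and 4 occur in both groups, but deviations from the group means correlated at -0.044 and 0.051, so the numbers were not treated as pairs. A replicate block on these 4 libraries left 0 passing member peaks, 0 of them over 2-fold, where only 52 of all 175929 peaks passed (0.0296%). The medians in that fit were 0.047 over all members, 0.073 at Runx2 and 0.0091 at Runx3. Among peaks near no change, the block turned the sign at Cbfa2t3 -33 bp (-0.052), Runx1 +24377 bp (-0.013), Runx1 P2 (-0.0078), Cbfa2t3 -20729 bp (-0.037) and Cbfa2t2 -181 bp (-0.019). Without oil replicate 4 it turned at Runx1 P2 (-0.034), Cbfa2t3 -20729 bp (-0.040) and Cbfa2t2 -181 bp (-0.021). Without tamoxifen replicate 3 it turned at Cbfa2t3 -33 bp (-0.0078), Runx1 P2 (-0.011), Cbfa2t3 -20729 bp (-0.036) and Cbfa2t2 -181 bp (-0.025), and without tamoxifen replicate 4 at Cbfa2t3 -33 bp (-0.0030). Over these fits the 4 peaks ran up to 0.14, 0.070, 0.086 and 0.069 in the order Cbfa2t3 -33 bp, Runx1 P2, Cbfa2t3 -20729 bp and Cbfa2t2 -181 bp. The cause was not tested. A 7-letter RUNX motif gave 9.21% and the central 200 bp 21.1% in place of 29.7%.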
